A study of Homo sapiens and Mus musculus with 57 samples.

Results

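HCT116 and Colo205 are human colorectal carcinoma lines, and the comparison described here asked which genes answered the SUMO inhibitor TAK-981 differently in one line than in the other. The 12 libraries of 57 in the study were HCT116 with DMSO, HCT116 with 1 uM TAK-981, Colo205 with DMSO and Colo205 with 1 uM TAK-981, with 3 libraries in each of the 4 groups and 16 h of exposure in all of them. DMSO is the solvent in which the compound is given. A gene was counted when the interaction of treatment with line passed an adjusted p of 0.05, that is, when the TAK-981 effect in HCT116 minus the TAK-981 effect in Colo205 was different from 0. Of 15680 genes tested 2032 passed, which was 13.0% of them. Both lines grew in medium with serum, the labels name no genetic change in either, and wells were seeded in triplets. The response of each line is the response of that line, and 2 lines do not stand for colorectal tumours in general.

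SUMO proteins are small ubiquitin-like modifiers that are joined to lysines of other proteins by a cascade which starts at the SUMO-activating enzyme, a pair of SAE1 and UBA2. TAK-981 and the related inhibitor ML-792 block that first step, so that new SUMO conjugates stop forming while SUMO proteases remove the old ones. Many transcription factors and chromatin repressors carry SUMO, and the mark is best known in transcription for keeping genes low. HCT116 keeps wild-type p53. The labels give the p53 state of neither line, and its part in the differences between the lines was not tested.

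The libraries held 18229679 to 24495356 estimated counts, and 16770 to 17947 genes were detected in each. The first principal component took 94% of the variance and separated the lines, and the second took 2% and separated DMSO from TAK-981. On the third, with 0.926% of the variance, HCT116 TAK-981 replicate 1 stood at -32.9 against -11.9 and -10.6 for the other libraries of its group. Without that library 2229 genes differed between the lines, of which 1828 were among the 2032. Mitochondrial genes took 7.91 ± 0.401% of counts in HCT116 with DMSO and 8.15 ± 0.962% with TAK-981, and 6.34 ± 0.203% and 6.94 ± 0.0404% in Colo205 (SD, n = 3). Epithelial markers matched the labels in part. EPCAM stood at 268 and 910 CPM (counts scaled to equal library size) in DMSO libraries of HCT116 and Colo205 and KRT8 at 1758 and 3310 CPM. VIL1 and CDH17, markers of intestinal epithelium, were near 0 in HCT116 (0.0471 and 0.0479 CPM) against 399 and 151 CPM in Colo205. CDX2, an intestinal transcription factor on the same marker list, went the other way, at 14.9 CPM in HCT116 and 0.721 CPM in Colo205. The lysozyme gene LYZ stood at 1768 CPM in Colo205 and 0.418 CPM in HCT116, while the leukocyte markers PTPRC and SPI1 did not pass the filter on low counts, and of the 4 leukocyte markers tested none differed in response by edgeR, with 2 at an unadjusted p under 0.05. Of 10 mesenchymal markers none passed either, with 1 at an unadjusted p under 0.05, and the part of other cell types in the results was not tested. The genes of the target enzyme did not differ in response. UBA2 changed by -0.04 (SE 0.0633) in HCT116 and by -0.15 (SE 0.0629) in Colo205 on the log2 scale, and SAE1 by -0.08 (SE 0.0558) and -0.12 (SE 0.0562), and neither passed the test in either line.

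Colo205 gave the larger response, and the difference between the lines came mostly from genes that moved in Colo205. TAK-981 changed 4253 genes in Colo205 (27.1% of those tested, of which 2237 were up, or 14.3%, and 2016 down, or 12.9%) and 2443 in HCT116 (15.6%, of which 1272 were up, or 8.11% of genes tested, and 1171 down, or 7.47%). The excess of rises depended on the fit. With RLE, another scaling of libraries, 1187 rose and 1324 fell in HCT116, and 2151 rose and 2172 fell in Colo205. By DESeq2 1225 rose and 1407 fell in HCT116, and 2106 rose and 2164 fell in Colo205. By limma-voom rises stayed ahead, at 1356 against 1296 in HCT116 and 2237 against 2069 in Colo205. Changes of at least 2-fold were counted for 481 rises and 178 falls in Colo205 and for 151 rises and 42 falls in HCT116. Most were in genes under 10 CPM in DMSO libraries of at least 1 line. Among the 8523 genes with at least 10 CPM in DMSO of both lines, 77 changed by 2-fold in Colo205 and 21 in HCT116. Of the 2032 genes whose response differed, 942 (6.01% of those tested) had the higher log2 effect in HCT116 and 1090 (6.95%) the lower. That balance turned when a mean of at least 1 CPM in a group of each line was required before testing, to 1095 higher and 986 lower. The 412 differences of at least 2-fold were less even, with 115 higher and 297 lower in HCT116. Under the same requirement 261 such differences were counted, 82 higher and 179 lower.

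The 2032 genes fell into kinds by what each line did alone. For 1186 genes (58.4%) the change was called in Colo205 and not in HCT116, with 656 rises and 530 falls. For 417 genes (20.5%) it was called in HCT116 and not in Colo205, with 226 rises and 191 falls. A further 161 were called in both lines with opposite signs, 134 in both lines with the same sign and 134 in neither line. Of the 161 genes, which are 1.03% of all genes tested, 57 rose in HCT116 and fell in Colo205 and 104 did the reverse. Among the 134 genes with the same sign, the change was larger in Colo205 for 103 and larger in HCT116 for 31. Of 1007 genes called in both lines, 846 had the same sign, and for 712 of these no difference in size was called, which does not show that the sizes were equal. These counts moved with single libraries. Without Colo205 TAK-981 replicate 1, 1274 genes differed between the lines, 740 of them called in Colo205 only. Without Colo205 DMSO replicate 3 the number called in Colo205 only was 790, and without HCT116 DMSO replicate 1 the number called in HCT116 only was 258.

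**Figure D1:**
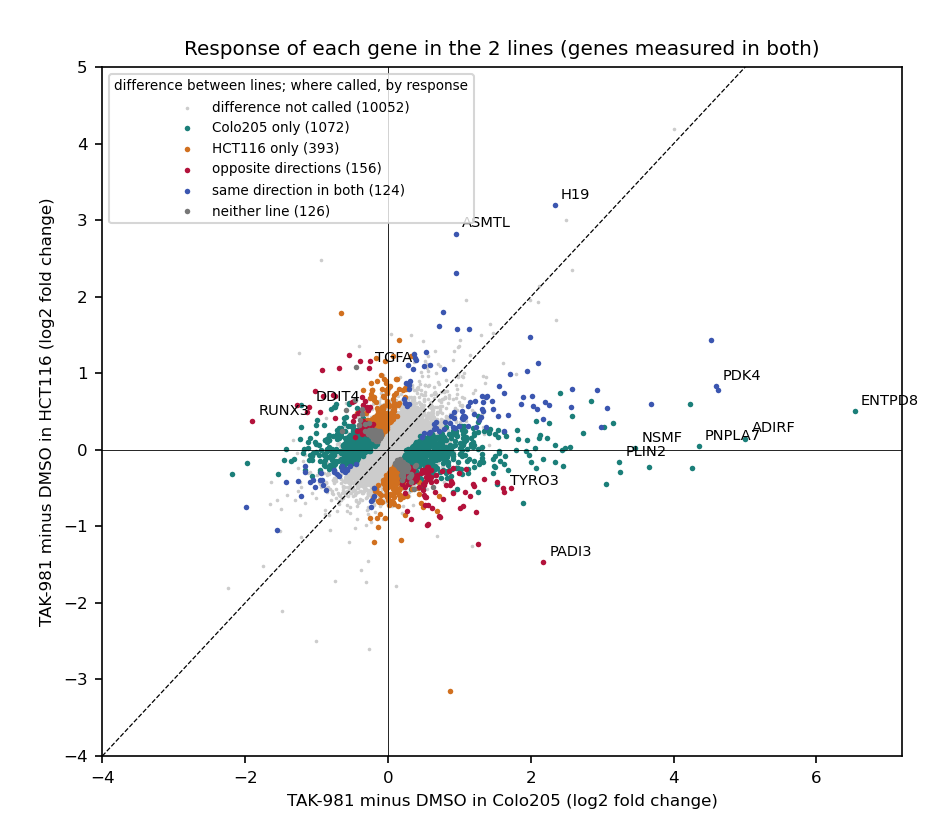
The log2 fold change of TAK-981 against DMSO is plotted for Colo205 (horizontal axis) and HCT116 (vertical axis), 1 point per gene for 11923 genes with at least 1 CPM in a group of each line. Colours mark genes whose response differed between the lines, by where a change was called, the dashed line marks equal responses, and 4 genes lie outside the axes. The long horizontal spread of points near 0 on the vertical axis holds the Colo205 inductions such as ENTPD8 at 6.53.

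Across genes the responses were only loosely alike. Over the 8523 genes with at least 10 CPM in DMSO libraries of both lines, Pearson's r between the log2 effects was 0.312 and Spearman's rho 0.273, with SDs of 0.215 in HCT116 and 0.279 in Colo205. Over all 15680 genes r was 0.135 and rho 0.203, with SDs of 0.469 and 0.687. The 2 effects share no library, but genes are not independent replicates, so these values only describe the libraries. Of those 8523 genes 1388 (16.3%) differed between the lines.

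Several of the genes that the naming rule took for a lower response in HCT116 were at a trace level in Colo205 and were raised there by TAK-981. ENTPD8, a membrane enzyme that splits extracellular nucleotides, stood at 1.22, 1.1 and 0.805 CPM in Colo205 DMSO libraries and at 91.3, 106 and 92.9 CPM with TAK-981. In HCT116 it stood at 0.889, 1.32 and 1.04 CPM with DMSO and at 1.36, 1.47 and 1.79 CPM with TAK-981. The groups did not overlap in either line, as held for 46.2% of all genes in Colo205 and 30.6% in HCT116, but the rise passed the test in Colo205 alone. The difference was -6.03 on the log2 scale (SE 0.304, adjusted p = 6.56e-10 by edgeR's quasi-likelihood test with Benjamini-Hochberg adjustment, as for all adjusted p-values here). ADIRF, a gene of adipocyte differentiation, rose in Colo205 from 0.905 ± 0.0485 to 29.3 ± 2.87 CPM (SD, n = 3). In HCT116 it was already at 104 ± 7.69 CPM and did not pass the test at 115 ± 11.5 CPM. OPRK1, the kappa opioid receptor, rose from 0.0838 to 9.45 CPM in Colo205 and was at 0 in all 3 HCT116 TAK-981 libraries. Its difference lost the call when HCT116 DMSO replicate 1 was left out (adjusted p = 0.0533).

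ENTPD8 has neighbours that did the same. In RefSeq order on chromosome 9 the next tested genes after ENTPD8 are NSMF and PNPLA7, and all 3 were among the 297 genes with a response at least 2-fold lower in HCT116. NSMF, a protein that carries signals from synapses to the nucleus in neurons, stood at 39.5, 37.7 and 36.7 CPM in Colo205 with DMSO and at 404, 456 and 397 CPM with TAK-981. In HCT116 its libraries overlapped, at 71.3, 80.9 and 89 CPM with DMSO and 80.1, 81 and 84.2 CPM with TAK-981. HCT116 therefore had the higher level of NSMF before treatment and the lower one after it. PNPLA7, a lysophospholipase, rose from 0.852 ± 0.0564 to 17.5 ± 0.918 CPM in Colo205, and overlapped in HCT116 at 2.42 ± 0.538 and 2.51 ± 0.515 CPM. The differences were -3.44 (SE 0.113, adjusted p = 1.47e-12) for NSMF and -4.30 (SE 0.272, adjusted p = 1.28e-08) for PNPLA7. Nearby, NRARP, a feedback inhibitor of NOTCH signalling, differed by -2.50 (SE 0.233, adjusted p = 1.35e-06), having risen from 1.32 to 6.78 CPM in Colo205. EXD3 differed by -0.95 (SE 0.173, adjusted p = 0.00149), whereas NOXA1 (-0.73, adjusted p = 0.0992) did not pass. The run ended on both sides, since TOR4A (-0.14), MRPL41 (0.01) and WDR85 (-0.14) did not pass either.

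The starts of the first 2 of these genes are shown, with that of RUNX3, which moved in opposite directions in the lines, as the contrast. Each is the 250 bases before the RefSeq start of the gene in build GRCh38.p14, written 5' to 3' on the minus strand that all 3 genes use. Capitals mark matches, on either strand, to a GC box (GGGCGG) or a CCAAT box (CCAAT). The TATA box TATAAA, the AP-1 motif TGACTCA, the E-box CACGTG and the CDX motif TTTATGG were searched in the same way and had no match in these 3 windows.
ENTPD8 (chr9:137441358-137441607, minus strand): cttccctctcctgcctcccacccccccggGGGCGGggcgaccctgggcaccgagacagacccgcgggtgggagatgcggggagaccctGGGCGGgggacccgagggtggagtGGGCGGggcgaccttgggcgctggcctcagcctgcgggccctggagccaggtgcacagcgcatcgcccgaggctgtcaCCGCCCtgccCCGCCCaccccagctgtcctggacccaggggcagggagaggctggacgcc
NSMF (chr9:137459335-137459584, minus strand): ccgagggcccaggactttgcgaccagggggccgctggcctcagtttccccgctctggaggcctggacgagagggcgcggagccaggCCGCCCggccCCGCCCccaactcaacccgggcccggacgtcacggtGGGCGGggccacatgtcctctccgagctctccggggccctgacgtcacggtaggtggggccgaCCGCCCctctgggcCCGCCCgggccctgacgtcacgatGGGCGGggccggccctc
RUNX3 (chr1:24965011-24965260, minus strand): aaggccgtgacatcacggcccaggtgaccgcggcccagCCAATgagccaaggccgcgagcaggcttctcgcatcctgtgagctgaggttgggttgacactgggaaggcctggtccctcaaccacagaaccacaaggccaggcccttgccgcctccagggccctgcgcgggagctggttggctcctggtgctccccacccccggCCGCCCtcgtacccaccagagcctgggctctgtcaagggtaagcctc
GC boxes were the only matches before ENTPD8 and NSMF, with 5 and 6, and the bases were 76.8% G or C in both. RUNX3 had 1 CCAAT box and 1 GC box at 67.6% G or C. In the 300 bases from 250 before to 50 after the start, a GC box was found in 68.7% of 11425 tested genes with a RefSeq promoter. The share was 68.6% of the 204 such genes with a response at least 2-fold lower in HCT116 and 61.2% of the 67 with one at least 2-fold higher. For CCAAT the shares were 36.5%, 31.4% and 32.8%, and for TATAAA 6.0%, 10.8% and 8.96%. A match says only that the letters occur there. The genes shown and the comparison of neighbours were chosen after their values were seen.

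Neighbouring genes were found elsewhere too. Of 271 genes with a RefSeq place and a response at least 2-fold lower in HCT116, 45 (16.6%) stood next to another of the set, counting tested genes only. Of all 14326 placed genes, 529 (3.69%) stood next to a gene of that set. The set at least 2-fold higher in HCT116 had neighbours as well. Of its 103 placed genes 8 (7.77%) stood next to another of that set, against 205 (1.43%) of all placed genes. The runs described next are from the set with the lower response. The longest run lay on chromosome 1 and held GNG4, LYST, NID1, GPR137B and ERO1LB. GPR137B, a lysosomal membrane protein, stood at 4.81, 3.72 and 4.88 CPM in Colo205 with DMSO and at 13.2, 18.6 and 12.5 CPM with TAK-981, and in HCT116 fell from 7.69 to 5.42 CPM (difference -2.22, SE 0.221). ERO1LB, an oxidase of the endoplasmic reticulum, rose from 12.8 to 32.5 CPM in Colo205 and fell from 10.0 to 7.73 CPM in HCT116 (-1.73, SE 0.137). LYST, a regulator of lysosome traffic, rose from 14.3 to 24.6 CPM in Colo205 (-1.04, SE 0.154). NID1 and GNG4 were at trace levels in at least 1 line, and the run of RNF103-CHMP3, RNF103 and RMND5A holds a read-through gene and overlapping genes. Without strand information reads of overlapping neighbours cannot be told apart, so such runs are uncertain.

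**Figure D2:**
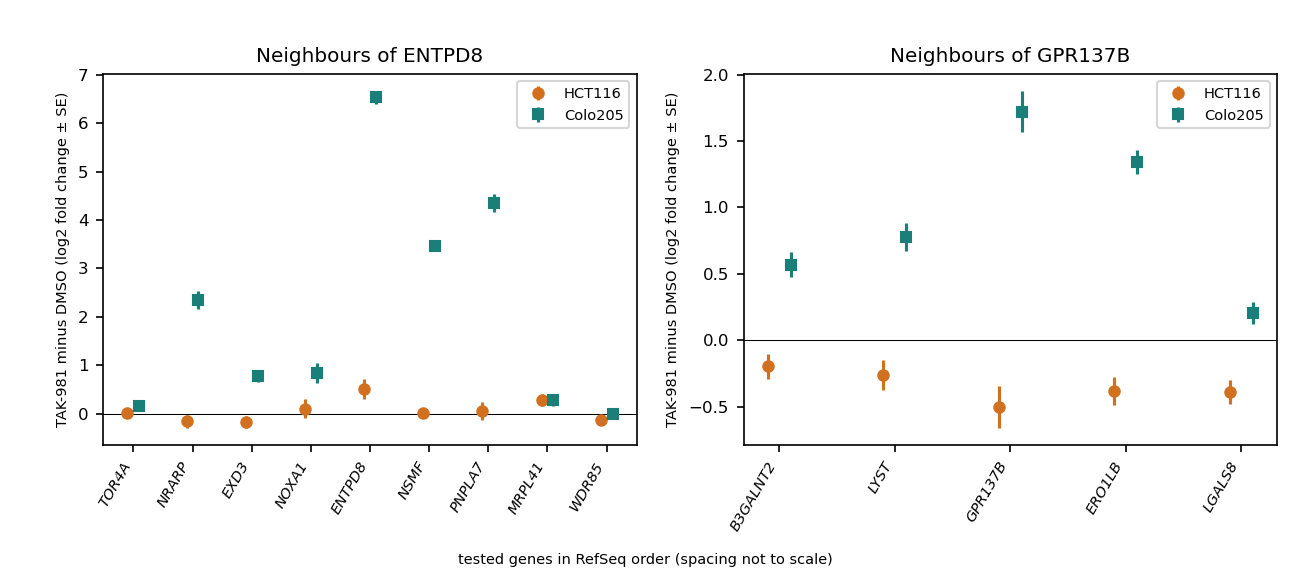
The log2 fold change of TAK-981 against DMSO with its SE is shown for tested genes in RefSeq order around ENTPD8 (left) and GPR137B (right), circles for HCT116 and squares for Colo205. On the left the Colo205 effects of ENTPD8, NSMF and PNPLA7 stand at 6.53, 3.46 and 4.35 while HCT116 stays between -0.17 and 0.51, and on the right the lines lie on opposite sides of 0 for the genes drawn. GNG4 and NID1, which stand on the right in the genome, are not drawn because of their trace levels.

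Genes of fatty acid handling formed a second group of Colo205 inductions. PLIN2, the coat protein of lipid droplets, stood at 202, 190 and 193 CPM in Colo205 with DMSO and at 1880, 1750 and 1890 CPM with TAK-981. Its HCT116 libraries overlapped, at 25.6, 22.1 and 23.9 CPM with DMSO and 19, 23.9 and 20.8 CPM with TAK-981, which gave a difference of -3.40 (SE 0.113, adjusted p = 1.47e-12). PDK4, the kinase that turns off pyruvate dehydrogenase, rose in both lines without overlap. It went from 1.4 ± 0.136 to 34.2 ± 1.16 CPM in Colo205 and from 2.42 ± 0.312 to 4.33 ± 0.183 CPM in HCT116 (difference -3.76, SE 0.191). ANGPTL4, a secreted inhibitor of lipoprotein lipase, likewise rose in both, from 0.0645 to 1.78 CPM in Colo205 and from 5.59 to 9.69 CPM in HCT116 (-3.83, SE 0.53). CREB3L3, a membrane-bound transcription factor of lipid genes known from liver, rose from 0.359 ± 0.241 to 17.7 ± 0.811 CPM in Colo205 and stood at 0.983 ± 0.173 and 0.715 ± 0.0676 CPM in HCT116.

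Of 25 tested genes in the list of fatty acid and PPAR-linked genes, 11 had a lower response in HCT116 and 2 a higher one. These 13 are 52.0% of the list, beside 13.0% of all genes tested. Like the other lists, this one was chosen with earlier results of these data known. It holds PLIN2, PDK4, ANGPTL4 and CREB3L3, so its share is a description and not a test. In Colo205 13 rose and 4 fell, and in HCT116 3 rose and 5 fell. Over all genes 14.3% rose and 12.9% fell in Colo205, and 8.11% rose and 7.47% fell in HCT116. ACSL1, which activates fatty acids with coenzyme A, rose from 113 to 273 CPM in Colo205 and stood at 18.4 and 16.2 CPM in HCT116 (-1.45, SE 0.133). CPT1A, HADHA and HADHB, enzymes of fatty acid oxidation, rose in Colo205 by 0.54, 0.36 and 0.27 on the log2 scale and changed by -0.03, 0.03 and -0.02 in HCT116. These 3 genes and PPARG were chosen after their values were seen. PPARG, 1 of the PPAR nuclear receptors on the list, fell in both lines, by 0.53 in HCT116 and by 0.87 in Colo205. The part of PPARG or of the other PPAR receptors in these changes was not tested. The list's median difference was -0.22 on the log2 scale, beside -0.001 over all genes tested. ABCA1, which exports cholesterol from cells, rose in both lines, from 6.47 to 38.5 CPM in Colo205 and from 3.33 to 5.73 CPM in HCT116 (-1.77, SE 0.201).

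Genes of cholesterol synthesis came next. Of 26 tested, 9 had a lower response in HCT116 and 1 a higher one, 9 rose and 0 fell in Colo205, and 2 rose and 6 fell in HCT116. The 10 that differed are 38.5% of the list, beside 13.0% of all genes tested. In Colo205 14.3% of all genes tested rose and 12.9% fell, and in HCT116 8.11% rose and 7.47% fell. The rises of this list in HCT116 are near that share. INSIG1, a sterol-regulated protein of the endoplasmic reticulum, stood at 68.5, 54.1 and 65.5 CPM in Colo205 with DMSO and at 143, 105 and 139 CPM with TAK-981. Its HCT116 libraries overlapped, at means of 35.2 and 33.5 CPM (difference -1.12, SE 0.176).

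RUNX3 had the highest response in HCT116 relative to Colo205 among genes measured in both lines that the naming rule took. This transcription factor stood at 37.4, 37.7 and 41.3 CPM in HCT116 with DMSO and at 45.4, 51.4 and 54.5 CPM with TAK-981. In Colo205 it stood at 14.2, 12.3 and 14.7 CPM with DMSO and at 3.95, 3.63 and 3.43 CPM with TAK-981. The groups did not overlap in either line, the rise was 0.38 on the log2 scale (SE 0.0811), the fall was -1.90 (SE 0.118), and the difference was 2.28 (SE 0.144, adjusted p = 1.28e-08).

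Others that rose in HCT116 and fell in Colo205 included regulators of growth. TGFA, a ligand of the EGF receptor, stood at 60.5, 57.6 and 52.2 CPM in HCT116 with DMSO and at 117, 122 and 118 CPM with TAK-981. It stood at 60.9, 64.7 and 66.6 CPM in Colo205 with DMSO and at 52, 56.6 and 51 CPM with TAK-981, so that lines with like DMSO levels moved apart (difference 1.33, SE 0.0973, adjusted p = 8.45e-08). CDKN1A, which encodes the cell cycle inhibitor p21, rose in HCT116 from 127, 143 and 142 to 195, 219 and 220 CPM and fell in Colo205 from 43.9, 50.2 and 49.1 to 30.3, 37.6 and 33.4 CPM (1.12, SE 0.118). DDIT4, an inhibitor of mTORC1, rose from 47.1 ± 9.05 to 69.3 ± 3.87 CPM in HCT116 and fell from 256 ± 19.4 to 119 ± 14.4 CPM in Colo205. TESC, a calcium-binding protein, rose from 21.6 ± 1.88 to 30.6 ± 1.09 CPM in HCT116 and fell from 36.9 ± 3.92 to 16.8 ± 1.24 CPM in Colo205. TNFRSF6B, a decoy receptor for FAS ligand, rose from 92.1 to 191 CPM in HCT116. It fell in Colo205 from 4.06 to 2.18 CPM, where its libraries overlapped, and it overlaps a neighbouring gene, so its reads are uncertain.

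The reverse pattern, down in HCT116 and up in Colo205, included receptors and calcium sensors. TYRO3, a receptor tyrosine kinase, fell in HCT116 from 35.6, 41.6 and 38.8 to 22.8, 28.1 and 28.4 CPM and rose in Colo205 from 17.8, 17.6 and 16.7 to 54.1, 49.8 and 56.3 CPM (difference -2.17, SE 0.125, adjusted p = 4.23e-09). The line with the higher level before treatment had the lower one after it. VSNL1, a calcium sensor known from neurons, started alike in the lines (20.3 ± 1.17 and 20.6 ± 1.24 CPM) and ended at 14.4 ± 1.99 CPM in HCT116 and 62.7 ± 4.12 CPM in Colo205. SH3BGRL2 fell from 11.3 to 7.61 CPM in HCT116 and rose from 92.2 to 174 CPM in Colo205. SYT1, a calcium sensor of vesicle release, rose from 19 to 40.7 CPM in Colo205, and its fall in HCT116 from 83.4 to 69.9 CPM passed the test although libraries overlapped. PADI3, which turns arginine into citrulline in proteins, fell from 7.69 to 2.8 CPM in HCT116 and rose from 0.235 to 1.08 CPM in Colo205 (-3.65, SE 0.378).

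**Figure D3:**
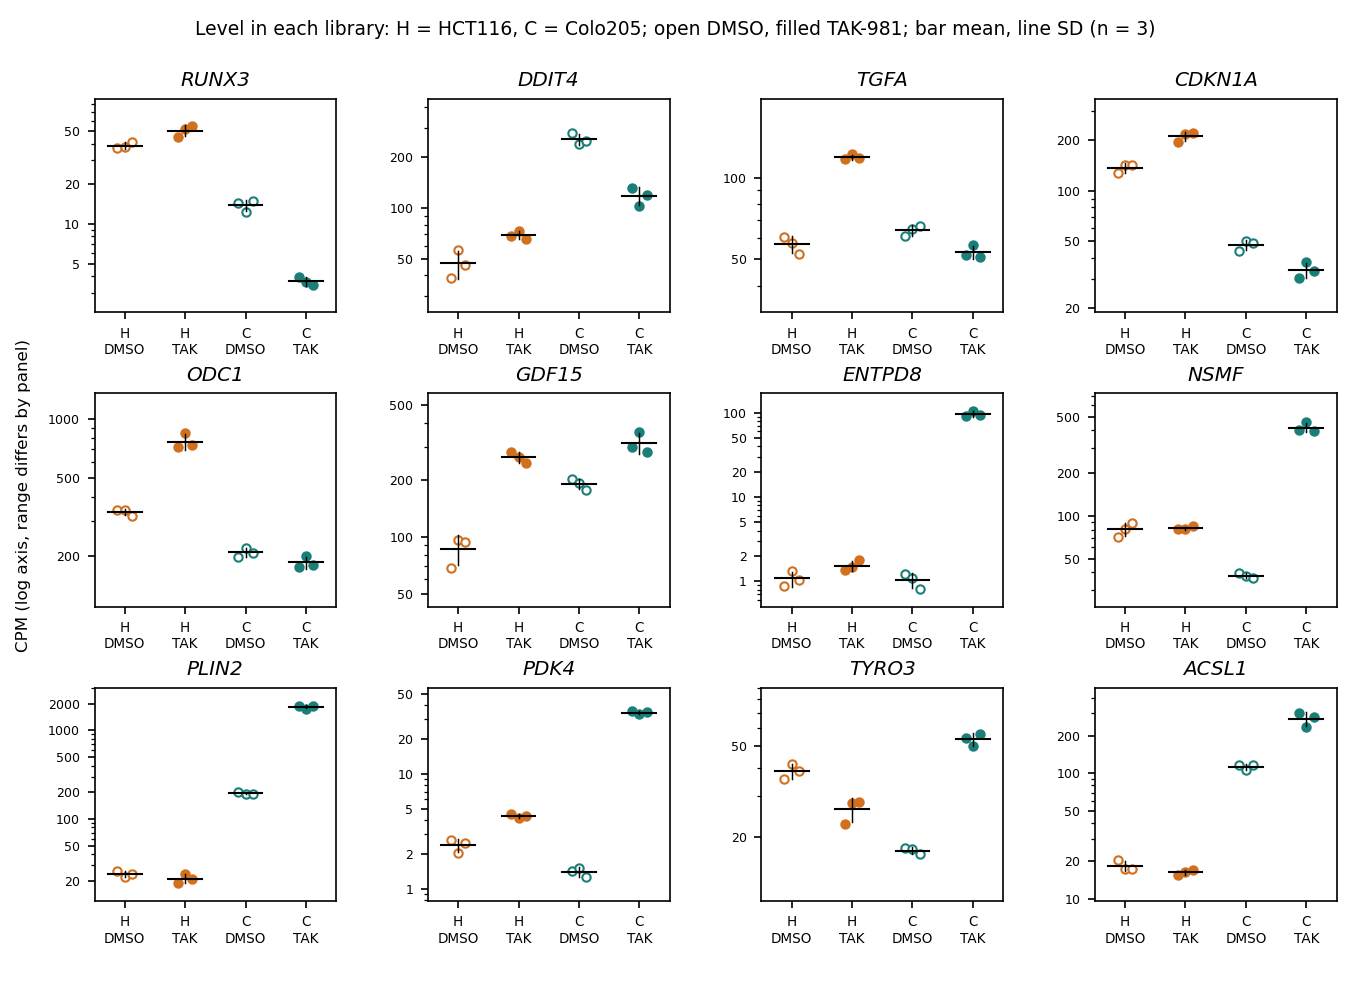
CPM of 12 genes is shown on log axes whose range differs by panel, 1 point per library, open for DMSO and filled for TAK-981, with HCT116 in orange and Colo205 in green, the mean as a bar and the SD as a line (n = 3). RUNX3, DDIT4, TGFA and CDKN1A rise in HCT116 and fall in Colo205, TYRO3 does the reverse, and ENTPD8 reaches 96.8 CPM only in Colo205 with TAK-981 among these 4 groups.

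Fewer genes moved mainly in HCT116. ODC1, the first enzyme of polyamine synthesis, rose from 342, 343 and 320 to 716, 846 and 740 CPM there, while its Colo205 libraries overlapped at means of 208 and 185 CPM (difference 1.36, SE 0.102, adjusted p = 1.22e-07). RRM2, a subunit of ribonucleotide reductase, rose from 314 ± 7.87 to 596 ± 32.3 CPM in HCT116, and in Colo205 stood at 308 ± 5.35 and 334 ± 11 CPM without passing the test (0.81, SE 0.0811). ABCC2, an exporter of conjugated compounds, fell from 123 ± 14 to 68.4 ± 5.77 CPM in HCT116 and stood at 107 ± 9.81 and 126 ± 9.43 CPM in Colo205 (-1.09, SE 0.129). Both lines raised ASMTL, a gene of the region shared by the sex chromosomes, by 2.82 in HCT116 and 0.95 in Colo205 on the log2 scale. Both also raised the imprinted noncoding RNA gene H19, from 2.59 to 23.8 CPM in HCT116 and from 29.4 to 148 CPM in Colo205 (difference 0.86, SE 0.139).

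The p53 target genes differed in both directions. Of 28 tested, 8 had a higher response in HCT116 and 3 a lower one, 11 in all, against 7 with a replicate block. These 11 are 39.3% of the list, beside 13.0% of all genes tested. In HCT116 15 rose and 0 fell, and in Colo205 8 rose and 5 fell. Beside these, 8.11% of all genes tested rose and 7.47% fell in HCT116, and 14.3% rose and 12.9% fell in Colo205. Beside CDKN1A, the 3 genes of this list with the smallest adjusted p for the difference were TP53INP1, PLK2 and AEN. TP53INP1, a stress-induced partner of p53, differed by -1.55 (SE 0.295), since it rose from 1.28 to 4.48 CPM in Colo205 and did not pass the test in HCT116 at 29.0 and 34.6 CPM. PLK2, a polo-like kinase, rose in both lines, by 0.45 in HCT116 and by 1.07 in Colo205. AEN, a nuclease of apoptosis, fell by 0.36 in Colo205 and changed by 0.08 in HCT116. MDM2, the ligase that degrades p53, rose by 0.33 in HCT116 and 0.41 in Colo205 with no difference called, and was chosen after its values were seen.

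Of the 25 lists, the ATF4 and CHOP stress genes had the most members with a higher response in HCT116, at 12 of 26 tested, with 1 lower. Among all genes tested the response was higher in HCT116 for 6.01% and lower for 6.95%. In Colo205 5 of the list rose and 10 fell, and in HCT116 9 rose and 0 fell. The shares of all genes tested were 14.3% up and 12.9% down in Colo205, and 8.11% up and 7.47% down in HCT116. ASNS, asparagine synthetase, rose in HCT116 from 325, 352 and 278 to 459, 443 and 395 CPM and fell in Colo205 from 272, 317 and 298 to 193, 241 and 205 CPM (difference 0.91, SE 0.133, adjusted p = 0.000201). CTH, an enzyme of cysteine synthesis, fell from 18.7 ± 1.55 to 9.01 ± 1.21 CPM in Colo205, and its HCT116 libraries overlapped at 10.0 and 9.71 CPM. GDF15, a secreted stress cytokine, rose in both lines, from 86.1 to 263 CPM in HCT116 and from 190 to 313 CPM in Colo205 (0.89, SE 0.155). The factors after which the list is named showed no called difference: ATF4 rose by 0.26 and 0.19 and DDIT3, which encodes CHOP, by 1.25 and 1.15 in HCT116 and Colo205. Both were chosen after their values were seen. These are RNA levels, and the part of either factor in the list's difference was not tested. The list's median effect was 0.28 in HCT116 and -0.15 in Colo205.

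Of 34 tested genes of ribosome biogenesis and MYC, 22 fell and 0 rose in Colo205, and 8 fell and 1 rose in HCT116, beside falls of 12.9% and 7.47% of all genes. In 8 the response was higher in HCT116 and in 0 lower, or 23.5% of the list beside 13.0% of all genes. DKC1, which modifies ribosomal RNA, fell by 0.57 in Colo205 and changed by -0.06 in HCT116 (difference 0.51, SE 0.081). FBL, fibrillarin, fell by 0.36 in Colo205 and changed by 0.12 in HCT116. MYC itself fell in both lines, by 0.36 in HCT116 and by 0.20 in Colo205, with no difference called. Of 24 genes of NF-kB and inflammation, 5 had a higher response in HCT116 and 0 a lower one, or 20.8% of that list. NFKB2, a subunit of NF-kB, rose from 68.9 to 105 CPM in HCT116 and stood at 13.4 CPM in both Colo205 groups, and NFKBIZ, a nuclear cofactor, fell from 50.6 to 31.1 CPM in Colo205.

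Interferon-stimulated genes went both ways. Of 38 tested, 3 had a higher and 8 a lower response in HCT116, and 16 rose and 4 fell in Colo205 against 9 and 3 in HCT116. The 11 that differed are 28.9% of the list, beside 13.0% of all genes tested. CMPK2, a mitochondrial nucleotide kinase, rose in Colo205 from 1.38, 1.19 and 1.21 to 13, 9.92 and 13.1 CPM and overlapped in HCT116 at 1.25 and 1.04 CPM (difference -3.54, SE 0.303). OAS1, which makes the messenger that activates RNase L, rose from 19.6 to 58.2 CPM in Colo205 and was under 1 CPM in all HCT116 libraries. OASL, a related protein, did the opposite, falling from 17.4 to 7.16 CPM in Colo205 and rising from 1.87 to 2.8 CPM in HCT116 (1.86, SE 0.225). Genes of MHC class I presentation rose in Colo205 for 15 of 21 tested and in HCT116 for 8, and 4 had a lower response in HCT116. Over all genes tested 14.3% rose and 12.9% fell in Colo205, and 8.11% rose and 7.47% fell in HCT116. A lower response in HCT116 was called for 6.95% of all genes tested. TAPBP, the chaperone tapasin, rose by 0.48 in Colo205 and changed by -0.16 in HCT116.

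Intestinal differentiation genes rose in Colo205 for 11 and fell for 6 of 29 tested, against 2 and 3 in HCT116, and 6 had a lower and 3 a higher response in HCT116. The 9 that differed are 31.0% of the list, beside 13.0% of all genes tested. Over all genes 14.3% rose and 12.9% fell in Colo205, and 8.11% rose and 7.47% fell in HCT116. The HCT116 counts of this list are near those shares. CDX2, a transcription factor of intestinal identity, rose in Colo205 from 0.793, 0.715 and 0.654 to 4.82, 3.57 and 3.68 CPM. In HCT116 it was higher and its libraries overlapped, at 14.9 ± 1.6 and 15.2 ± 1.5 CPM (difference -2.45, SE 0.243). KLF4, a factor of epithelial differentiation, rose from 115 to 218 CPM in Colo205, and in HCT116 its fall from 61.1 to 51.7 CPM passed the test although libraries overlapped. KLF5, known from dividing crypt cells, went the other way in Colo205, from 1058 to 774 CPM. SPDEF, a factor of goblet cells, fell from 12.5 to 3.34 CPM in Colo205 and was under 1 CPM in HCT116. BMP4, a secreted differentiation signal, rose in both lines and more in Colo205, from 272 to 705 CPM against 69.4 to 112 CPM in HCT116 (-0.68, SE 0.0933). CD44, a stem cell adhesion receptor, fell in both and more in Colo205, from 238 to 102 CPM against 727 to 477 CPM (0.62, SE 0.0771).

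Immediate early genes and feedback genes of MAPK signalling differed by member, with 4 higher and 4 lower in HCT116 of 26 tested. These 8 are 30.8% of the list, beside 13.0% of all genes tested. FOS, a subunit of AP-1, rose from 88.6 to 176 CPM in Colo205 and fell from 591 to 480 CPM in HCT116 (difference -1.29, SE 0.112). DUSP1, a MAPK phosphatase, rose from 28.3 to 65.3 CPM in Colo205 and did not pass the test in HCT116 at 53.1 and 45.7 CPM. PHLDA1 fell from 1031 to 746 CPM in Colo205 and rose from 566 to 639 CPM in HCT116. Of 20 NRF2 and antioxidant genes 3 were higher and 4 lower, or 35.0% in all. HMOX1, heme oxygenase, fell in both lines and further in Colo205, from 15.8 to 3.95 CPM against 18.3 to 11 CPM. ABCC1, an exporter of glutathione conjugates, fell from 191 to 80.1 CPM in Colo205 and from 141 to 106 CPM in HCT116 (0.85, SE 0.0922).

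In the lists for mitosis and the unfolded protein response no member was called down in either line. Of 36 mitosis genes 27 rose in HCT116 and 29 in Colo205, and 3 differed in size, 1 with a replicate block. The 3 are 8.33% of the list, below the 13.0% of all genes tested. Over all genes 8.11% rose in HCT116 and 14.3% in Colo205. ANLN, a scaffold of the contractile ring, rose by 0.29 and 0.67. Of 21 genes of the unfolded protein response 9 rose in HCT116 and 18 in Colo205, and 4 had a lower and 1 a higher response in HCT116. The 5 that differed are 23.8% of that list. DNAJB9, a cochaperone, rose by 0.66 in Colo205 and changed by -0.01 in HCT116, while XBP1, the factor that drives part of this response, rose by 0.44 in HCT116 and changed by 0.03 in Colo205. In the SUMO pathway list, 6 of 27 tested genes were higher and 2 lower in HCT116, 8 in all (29.6%), against 5 with a replicate block. PIAS2, a SUMO ligase, rose by 0.52 in Colo205 and changed by -0.21 in HCT116 (difference -0.72, SE 0.127). SUMO3, chosen after its values were seen, rose in both lines, by 1.06 in HCT116 and by 0.78 in Colo205.

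In the other lists, counts of higher and lower responses in HCT116 were 2 and 8 of 38 DNA replication genes, 4 and 4 of 19 heat shock genes, 2 and 3 of 17 BCL2 family genes and 2 and 6 of 26 hypoxia and glycolysis genes. Over all genes tested the shares were 6.01% higher and 6.95% lower, or 13.0% in all. With a replicate block 3 BCL2 family genes were called. The counts were 1 and 3 of 21 intestinal stem and WNT target genes, 3 and 5 of 22 BMP and TGF-beta genes, 1 and 4 of 13 ABC and efflux genes and 0 and 1 of 10 neuronal genes. The neuronal share, 10.0%, was below that of all genes. Of 31 chromatin silencing genes 1 was higher (3.23%, below the share of all genes). Of 5 tested genes in the cleavage-stage list 1 was higher, the imprinted gene H19 given above. Of 6 germline and placental genes none passed by edgeR, with or without a replicate block, and none at an unadjusted p under 0.05 (the smallest, for SMC1B, was 0.0796). HSPA1B, an inducible HSP70 whose near-identical copy makes its counts uncertain, rose from 18 to 37.2 CPM in Colo205 and overlapped in HCT116 at 304 and 337 CPM. THBS1, thrombospondin, rose from 1.03 to 3.29 CPM in Colo205 and overlapped in HCT116 at 11.2 and 9.36 CPM. The cyclin gene CCNE1 fell from 31.8 to 23.7 CPM in HCT116 and rose from 4.56 to 6.57 CPM in Colo205, and CCNE2 fell from 28 to 23.3 CPM and rose from 25.3 to 35.8 CPM. SLBP, the histone mRNA binding protein, rose from 85.7 to 175 CPM in Colo205 with overlapping HCT116 libraries at 119 and 116 CPM. SLC2A1, a glucose transporter, fell by 0.79 in Colo205 and changed by 0.00 in HCT116.

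**Figure D4:**
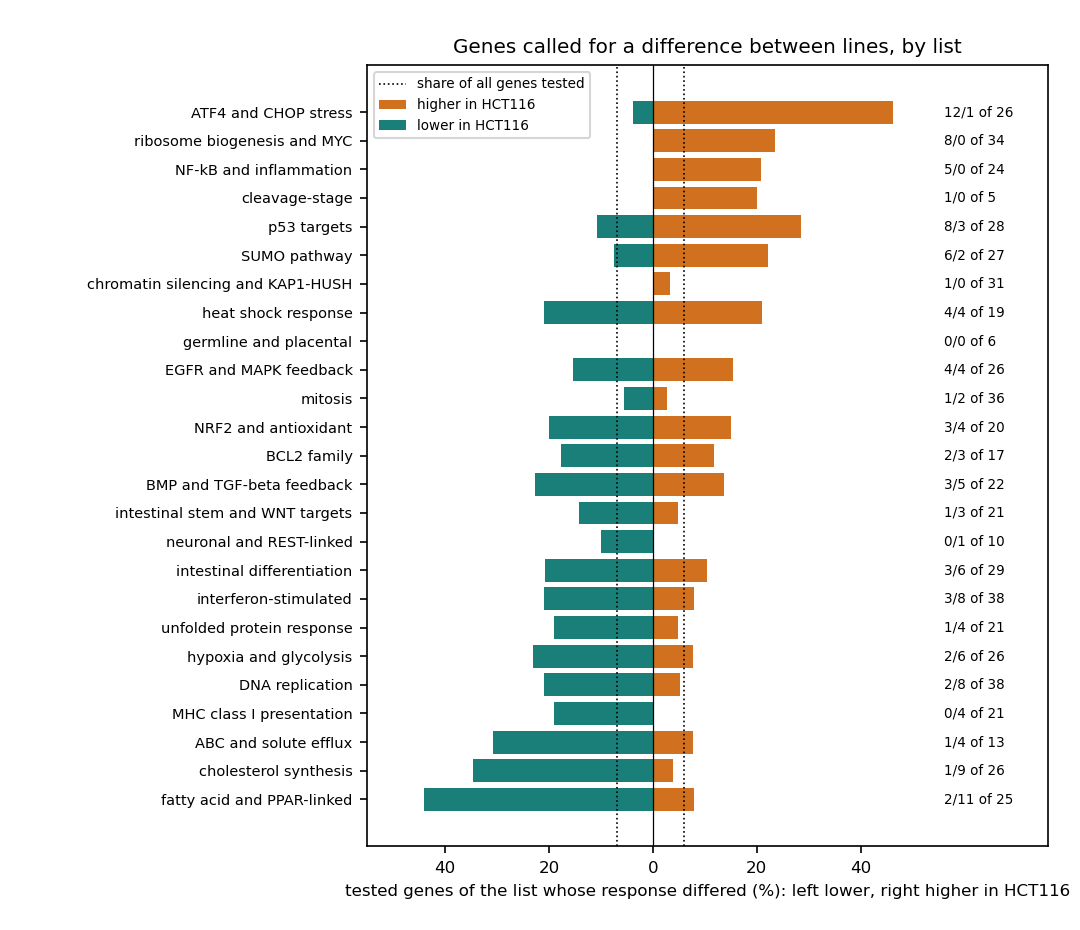
For each of 25 gene lists the bars give the share of tested members whose response was higher (right, orange) or lower (left, green) in HCT116, with the counts at the right edge. Dotted lines mark the shares over all genes tested, 6.01% higher and 6.95% lower. The ATF4 and CHOP list at the top reaches 12 of 26 higher, and the fatty acid list at the bottom 11 of 25 lower.

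The differences called in genes not measured in both lines were large, with group means under 1 CPM in at least 1 line. Of 3757 genes without a mean of 1 CPM in some group of each line, 161 (4.29%) differed. The naming rule took 10 of them. CREB3L3, SPDEF and OPRK1 are given above. CACNA1H, GNG4 and TSPAN18 were at 0 in all 3 Colo205 DMSO libraries and at means of 0.294, 0.209 and 0.176 CPM with TAK-981, and no fold is given for them. In HCT116 CACNA1H, a calcium channel subunit, stood at 61.1 and 67.2 CPM, GNG4, a G protein subunit, fell from 11.9 to 7.63 CPM, and TSPAN18, a tetraspanin, fell from 26.1 to 17.3 CPM. The other 4 lost their calls when 1 library was left out and are not described.

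ML-792 was given to both lines at the same dose and for the same time. Its effects use the same DMSO libraries as those of TAK-981, so the values are set side by side and no likeness is drawn from them. ENTPD8 changed by 0.32 in HCT116 and 6.59 in Colo205 with ML-792 against 0.51 and 6.53 with TAK-981, all on the log2 scale. RUNX3 changed by 0.47 and -1.70 with ML-792 against 0.38 and -1.90, CDKN1A by 0.61 and -0.76 against 0.62 and -0.50, and PLIN2 by 0.04 and 3.18 against -0.16 and 3.24. Over 15857 genes, 3136 (19.8%) differed between the lines in response to ML-792. The direct test of whether the difference between lines was itself different between compounds called 20 genes (0.126%), 17 higher and 3 lower with TAK-981, and 2649 at an unadjusted p under 0.05. That number depends on the fit, with 381 genes by DESeq2 (174 higher and 207 lower) and 155 with a replicate block (90 higher and 65 lower), so neither the number nor the balance is firm. For ENTPD8 the compounds differed by 0.23 (SE 0.249) in this measure, for RUNX3 by 0.10 (SE 0.163) and for PLIN2 by -0.27 (SE 0.104), and a missed threshold does not show that the compounds act alike. HMGA2, a chromatin protein, was among the 20 genes (0.61, SE 0.0935) and was named after its values were seen.

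MDA-MB-231, a breast carcinoma line, was treated in the same way. Of 13794 genes tested there 2388 (17.3%) changed with TAK-981. CREB3L3 rose in that line from 0.248 to 2.06 CPM, PDK4 from 1.63 to 5.11 CPM, ANGPTL4 from 2.37 to 7.71 CPM and PLIN2 from 57.8 to 77.1 CPM. ADIRF and NSMF did not pass the test there, with log2 effects of -0.04 and -0.07, and ENTPD8 and RUNX3 were below its filter on low counts. ODC1 rose (0.61, SE 0.0703), and CDKN1A fell (-0.24, SE 0.0469).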

How the data were processed

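RNA-seq of HCT116 and Colo205 with DMSO or TAK-981 was analysed. Per the labels' protocols, poly(A) RNA went into TruSeq libraries that were sequenced as read pairs. Aligner, counting tool, genome build, annotation and strand setting are not stated in the labels or headers used here. The tables deposited by the authors give a count per gene, per the file headers, and the values are estimated counts that were not normalized, since they sum to different totals and between 21.2 and 25% of a library's counts lay in genes whose value was not whole. They were rounded before testing.

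One edgeR 4.0.16 fit (R 4.3.3) held all 12 libraries, with TMM scaling, 1 term per group and the quasi-likelihood F-test. The filter on low counts was filterByExpr, at 10 counts and a total of 15, which left 15680 of 30373 listed genes. A call needed a Benjamini-Hochberg adjusted p below 0.05 over all of these. Effects are on the log2 scale with standard errors, 2-fold means at least 1 on that scale, and CPM is scaled by the TMM library size. A gene was measured in both lines when its mean reached 1 CPM in at least 1 group of each line. Effects of ML-792 come from a fit of 18 libraries, and those of MDA-MB-231 from a fit of that line, which was added later. Scripts were tested on simulated data, where the share of false calls came out above the adjusted p threshold, so calls close to it are less sure than that threshold states. Alternatives used RLE scaling, DESeq2 1.42.0, limma-voom 3.58.1, other filters, a replicate block, 18 libraries and leaving out each library.

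Wells were seeded in triplets and are not said to be separate cultures. The p-values therefore reflect the spread among these libraries alone, and that spread may be technical. No pair of replicates was alike within sampling noise, since over 12 pairs chi-square divided by its degrees of freedom ran from 3 to 20.1. Libraries of a line share replicate numbers. Correlations of deviations from group means between same-numbered libraries were 0.0778, 0.0209 and 0.0336 in Colo205 and -0.0383, 0.0739 and -0.0386 in HCT116 over all genes tested, none above 0.1. Over 10137 genes of at least 10 CPM they were 0.194, 0.187 and 0.221 in Colo205 and -0.106, 0.024 and -0.0252 in HCT116. That minimum was chosen after the correlations and the count of calls with the block had been seen, so whether the numbers pair the Colo205 libraries is uncertain.

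Members and the 25 gene lists, with 680 memberships of which 589 were tested, were chosen with earlier results of these data known. Genes named by rule were up to 10 in each direction with the largest difference among called genes measured in both lines, with at least 5 CPM in the highest group and no overlap of libraries in at least 1 line. Up to 5 each way came from genes under 1 CPM in both groups of 1 line by the same rule. Up to 5 each way had opposite calls and the smallest adjusted p, and up to 4 of each list had the smallest adjusted p. UBA2 and SAE1, the target, complete the rule. Gene order and promoters were matched by symbol to RefSeq tables of GRCh38.p14 (14326 and 11425 of the genes tested). Some genes taken by the naming rule are not reported here.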

Additional observations from a re-analysis of the deposited data

Results flagged for a closer look

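The difference between lines passed the test for every gene described as differing, and only those among the 10 genes chosen by the naming rule for opposite calls in the 2 lines are listed here. In these genes TAK-981 was called up in one line and down in the other by edgeR's quasi-likelihood test. RUNX3, DDIT4, TESC, TGFA and CDKN1A rose in HCT116 and fell in Colo205, with differences of 2.28, 1.66, 1.64, 1.33 and 1.12 on the log2 scale. TYRO3, VSNL1, ERO1LB, SH3BGRL2 and SYT1 fell in HCT116 and rose in Colo205, with differences of -2.17, -2.11, -1.73, -1.48 and -1.35. In SYT1 the HCT116 libraries overlapped. In all 10 the difference between the lines kept its call and sign under every alternative run, and the calls within each line were not followed.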

How the results depend on the processing

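None of the differences between the lines followed through the alternatives, those of the 115 genes named by rule, changed sign; the sign of the other genes was not followed. Genes whose response differed numbered 2032, against 2023 with RLE scaling, 2204 by DESeq2, 1953 by limma-voom, 2019 with no filter, 2081 with at least 1 CPM in each line and 2263 with 18 libraries. Differences of at least 2-fold numbered 412 and, with at least 1 CPM in each line, 261. Differences between the compounds numbered 20, against 381 by DESeq2 (174 higher) and 155 with a replicate block (90 higher). With the replicate block 1778 genes differed, of which 1645 were shared; whether the replicate numbers pair the libraries is uncertain, and the cause was not tested.

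When 1 library was left out, the differing genes ranged from 1274 (Colo205 TAK-981 replicate 1) to 2229 (HCT116 TAK-981 replicate 1), and differences of at least 2-fold from 328 to 417. Changed genes ranged from 1580 (HCT116 DMSO replicate 1) to 2378 in HCT116 and from 3079 to 5122 in Colo205. Genes called in Colo205 only ranged from 740 to 1415, in HCT116 only from 258 to 443, in opposite directions from 104 to 168, in the same direction from 79 to 140, and in neither line from 66 to 146. Beside the libraries named in the report, counts moved by over 1.5 times without Colo205 TAK-981 replicate 3 (opposite 104, same direction 79), Colo205 DMSO replicate 1 (neither line 78), HCT116 DMSO replicate 2 (same direction 84) and HCT116 TAK-981 replicate 2 (same direction 86). Of these 115 genes, which include UBA2 and SAE1 that were not called, 96 kept their side of the threshold in all settings and 19 did not. With 3 libraries a group, depth limits genes under about 1 CPM, where a few reads decide a value.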

Other observations

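Metallothioneins, small proteins that bind zinc and copper, were not among the lists and were chosen after their values were seen. Of 7 tested genes, 3 had a higher response in HCT116 and 0 a lower one by edgeR's quasi-likelihood test with Benjamini-Hochberg adjustment. Over all genes tested 6.01% were higher and 6.95% lower. MT1A was at 0 CPM in both Colo205 groups, and MT1G and MT1H were at 0 CPM in both HCT116 groups, so their differences could not be measured. MT2A rose in HCT116 from 507 to 834 CPM and fell in Colo205 from 87.5 to 51.6 CPM (difference 1.49 on the log2 scale, SE 0.201, adjusted p = 9.21e-05). MT1X rose by 0.49 and fell by 0.95, and MT1F rose by 0.78 in HCT116 and did not pass the test in Colo205 at -0.35. These genes are alike in sequence, so the counting could split reads between them.

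Among neighbouring genes with a lower response in HCT116 were the linked TNF family ligands TNFSF9 and CD70, also chosen after their values were seen. TNFSF9 rose in Colo205 from 4.54 to 20.4 CPM and in HCT116 from 16.5 to 21.9 CPM. CD70 rose in Colo205 from 0.317 to 1.86 CPM and stood at 0.585 and 0.57 CPM in HCT116.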
